A study of Arabidopsis thaliana with 9 samples.

Results

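The sRNAs described here are those of 22 nt that were sequenced from the S-locus sRNA precursors Ah04mir1887, Ah20mirS3 and Ah20mirS2. They were chosen by their listed length alone. Each combination of start, end, strand and sequence was taken once per precursor, and 42 of the 272 distinct sRNAs in the 3 deposited lists were 22 nt long. Of these, 15 came from Ah04mir1887, 21 from Ah20mirS3 and 6 from Ah20mirS2. The sequence itself had the listed length in every row. Over all lengths, the lists hold 95 distinct sRNAs of Ah04mir1887 and 109 of Ah20mirS3. The study reports more for both, from a database that also took in earlier sequencing, partly of A. halleri. The lists used here are thus not its full set.

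The plants were A. thaliana of the C24 ecotype, each line expressing 1 of these hairpin precursors from A. halleri, and immature floral buds were sampled. The Ah04mir1887 and Ah20mirS3 plants were homozygous for the transgene, while the labels give only C24 Ah20mirS2 for the third genotype. Each precursor has 3 libraries, 1 of the input (total sRNA), 1 of the sRNAs bound to AGO1 (AGO1-IP) and 1 of those bound to AGO4 (AGO4-IP). The lists name libraries by codes that no label ties to a fraction, so the values below are given per code or over the 3 codes of a precursor, and say nothing about AGO1 or AGO4. For Ah04mir1887 and Ah20mirS3 the study kept 1 transgenic line each as its reference, and the Ah20mirS3 line also carries the neighbouring precursor Ah20mir1887. No library of C24 plants without a transgene was analysed here. The lists hold no read counts, so the depth of a library is unknown, every sRNA counts once whether rare or abundant, and no replicate test was possible.

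S-locus sRNA precursors are predicted to fold into a hairpin whose 5' and 3' arms are joined by a terminal loop, as miRNA precursors do. In the study, Ah04mir1887 and Ah20mirS3 lowered the transcript of the pollen gene SCR of a recessive S-allele. A test of Ah20mirS2 is not described there. In plants, Dicer-like proteins (DCL) cut double-stranded RNA into sRNAs of set lengths. DCL1 makes most miRNAs, usually of 21 nt, DCL4 makes siRNAs of 21 nt, DCL2 those of 22 nt and DCL3 those of 24 nt. A few plant miRNAs are 22 nt long, and when bound to AGO1 these can start the production of secondary siRNAs from the transcript they cut. A base added at the 3' end leaves the 5' nucleotide and the seed (bases 2 to 8 from the 5' end) as they were. A base added at the 5' end moves the seed, and changes the 5' nucleotide unless the added base equals the former first base. AGO1 is known to favour sRNAs that begin with U and AGO4 those that begin with A.

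Most 22-nt sRNAs were a listed 21-nt sRNA of the same precursor with 1 more base at 1 of its ends. Of the 11 sRNAs of 22 nt listed under at least 2 library codes, 10 are shown first, because they did not rest on a single library. A capital at the 3' end marks a base without which the sequence is itself a listed 21-nt sRNA, and a capital at the 5' end likewise. Positions count from 1 along the S-allele sequence, Ah04 for Ah04mir1887 and Ah20 for Ah20mirS3, with T written for U. For Ah20mirS2 the methods do not name the S-allele sequence used.
Ah04mir1887, 13534 to 13555, 5' arm: TagattgttcttagtatgaggT
Ah04mir1887, 13560 to 13581, 3' arm: TcgtactaagtagagtctaagT
Ah04mir1887, 13561 to 13582, 3' arm: CgtactaagtagagtctaagtG
Ah04mir1887, 13562 to 13583, 3' arm: GtactaagtagagtctaagtgA
Ah04mir1887, 13563 to 13584, 3' arm: tactaagtagagtctaagtgaA
Ah20mirS3, 10208 to 10229, 5' arm: TaataagcagtcgttttagatT
Ah20mirS3, 10315 to 10336, 3' arm: TttagctttgattggttacccG
Ah20mirS3, 10320 to 10341, 3' arm: CtttgattggttacccgtaaaA
Ah20mirS3, 10321 to 10342, 3' arm: TttgattggttacccgtaaaaT
Ah20mirS2, 2193 to 2214 on the minus strand, 3' arm: taaacacataaacacacttctg
Of the 11, 10 extended a listed 21-nt sRNA and 9 did so at both ends, the Ah20mirS2 sRNA being the exception without a capital. Consecutive lines of the Ah04mir1887 3' arm are the same stretch moved by 1 nt, so these sRNAs overlap and are not independent of each other.

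Over all 42 sRNAs of 22 nt, 35 (83.3%, 95% Wilson interval 69.4 to 91.7%) were a listed 21-nt sRNA extended by 1 nt. Of the 42, 14 extended a 21-nt sRNA at the 3' end only, 7 at the 5' end only, 14 at both ends, and 7 at neither. The 28 with a 3' extension therefore kept the 5' nucleotide and the seed of a listed 21-nt sRNA. By precursor, the extended sRNAs were 14 of 15 for Ah04mir1887 (93.3%, 70.2 to 98.8%), 17 of 21 for Ah20mirS3 (81.0%, 60.0 to 92.3%) and 4 of 6 for Ah20mirS2 (66.7%, 30.0 to 90.3%). The 3 intervals overlapped. Without AVBR-2, 0 of the 2 remaining Ah20mirS2 sRNAs were extended.

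The same share was computed for each other length, against the sRNAs 1 nt shorter. It held for 9 of the 20 sRNAs of 19 nt, 20 of the 40 of 20 nt (50.0%) and 34 of the 64 of 21 nt (53.1%, 41.1 to 64.8%). Among the longer ones it was 74.4% (58.9 to 85.4%) of the 39 of 23 nt, 75.0% of the 36 of 24 nt and 75.0% of the 16 of 25 nt. For the 3 precursors together, the 22-nt value lay above that of 21 nt without overlap of the intervals. Within each precursor the intervals of these lengths did overlap. Those of 21 nt were 44.4 to 85.8% in Ah04mir1887, 32.6 to 67.4% in Ah20mirS3 and 25.8 to 65.8% in Ah20mirS2. The joint interval of 22 nt also overlapped those of 23 nt and longer. All these intervals treat overlapping sRNAs as if they were independent. How often a shorter sRNA is found depends on how many of that length are listed, and 21 nt was the length with the most sRNAs. For scale, 16 of the 97 stretches of 21 nt in the covered Ah04mir1887 sequence were listed (16.5%), while 13 of the 23 distinct stretches of 21 nt that lie inside its 22-nt sRNAs were listed (56.5%). In Ah20mirS3 the numbers were 28 of 100 (28.0%) and 19 of 35 (54.3%), and in Ah20mirS2 20 of 84 (23.8%) and 4 of 10 (40.0%). Seen from the 21-nt side, 13 of 16 listed 21-nt sRNAs of Ah04mir1887, 19 of 28 of Ah20mirS3 and 4 of 20 of Ah20mirS2 lay inside a listed 22-nt sRNA.

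The bases added at each end were counted over the pairs of a 22-nt sRNA with a 21-nt sRNA inside it. Over the 28 pairs that shared their 5' end, the added 3' base was U in 12, A in 9, G in 5 and C in 2. Over the 21 pairs that shared their 3' end, the added 5' base was U in 13, C in 4, G in 3 and A in 1. U made up 36.8%, 37.1% and 36.3% of the covered bases of Ah04mir1887, Ah20mirS3 and Ah20mirS2. At the 3' end U was added in 4, 7 and 1 of the pairs of these precursors and A in 4, 3 and 2, so that U led in Ah20mirS3 alone. Between listed sRNAs that overlapped, 0 bases differed. Both terminal bases of 40 of the 42 sRNAs were also covered by an sRNA of another length. The hairpin sequence was itself rebuilt from these sRNAs, and their reads had been kept with at most 1 mismatch to the S-allele. Agreement was thus favoured beforehand, and whether the added bases follow the S-allele sequence was not tested. A base added after cutting that happens to equal the next base of the hairpin cannot be told apart from one cut with it.

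The 21-nt sRNA was listed under more codes than the 22-nt sRNA that extends it in 24 of the 49 pairs, under as many in 18 and under fewer in 7. Both were listed under a shared code in 44 pairs. Among the 28 pairs with the same 5' end, 26 had a shared code, and in 23 every code of the 22-nt sRNA also listed the 21-nt sRNA. Among the 21 pairs with the same 3' end these numbers were 18 and 14.

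Ah20mirS3 gave the widest listed set of this kind. The 22-nt sRNA at 10320 to 10341 was listed under AVBR-8, AVBR-9 and AVBR-15, and so were both 21-nt sRNAs inside it, at 10320 to 10340 and 10321 to 10341. The latter is also contained in the next 22-nt sRNA, at 10321 to 10342, which was listed under AVBR-8 and AVBR-15. Set out against each other, the lower-case 21-nt sRNAs and the 22-nt sRNAs read as follows, with capitals as above.
Ah20mirS3, 10320 to 10340, 21 nt: ctttgattggttacccgtaaa
Ah20mirS3, 10320 to 10341, 22 nt: CtttgattggttacccgtaaaA
Ah20mirS3, 10321 to 10341, 21 nt: tttgattggttacccgtaaaa
Ah20mirS3, 10321 to 10342, 22 nt: TttgattggttacccgtaaaaT
A single 21-nt sRNA was thus the 3' part of 1 listed 22-nt sRNA, which begins with C, and the 5' part of another, which begins with U.

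The 7 sRNAs without a listed 21-nt relative were spread over the hairpins. The Ah04mir1887 one, at 13495 to 13516, lay 37 nt from the loop with 11 of its 22 bases paired. The Ah20mirS3 ones were those at 10219 to 10240, 10251 to 10272, 10334 to 10355 and 10349 to 10370, all listed under AVBR-8 alone. The remaining ones belonged to Ah20mirS2, at 2270 to 2291 and at 2193 to 2214. Of the 7, 3 lacked a listed sRNA longer by 1 nt as well, namely those at 10334 to 10355, 10349 to 10370 and 2193 to 2214. Over all 42, 29 were themselves extended by 1 nt in a listed 23-nt sRNA, and 25 had a relative at both 21 and 23 nt.

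The first base was U in 22 of the 42 sRNAs (52.4%, 37.7 to 66.6%), C in 9, G in 6 and A in 5. By precursor, U led 6 of the 15 Ah04mir1887 sRNAs (40.0%, 19.8 to 64.3%), 11 of the 21 Ah20mirS3 sRNAs (52.4%, 32.4 to 71.7%) and 5 of the 6 Ah20mirS2 sRNAs (83.3%, 43.6 to 97.0%). Next to U came G in Ah04mir1887, with 5 sRNAs, and C in Ah20mirS3, with 6 sRNAs. For comparison, 36.5%, 37.8% and 34.1% of all 22-nt stretches in the covered sequence of the 3 precursors, in the same order, begin with U. The interval held this value for Ah04mir1887 and Ah20mirS3 and lay above it for Ah20mirS2, where it rests on 6 sRNAs that overlap in part. The share was 51.6% (39.6 to 63.4%) among the 21-nt sRNAs of the 3 precursors and 46.2% (31.6 to 61.4%) among those of 23 nt, so the 3 lengths had overlapping intervals. Beginning with U was as frequent on the 5' arm, with 11 of 21 sRNAs, as on the 3' arm, with 11 of 21.

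An sRNA was given to the 5' or the 3' arm according to the side of the predicted unpaired tip on which its middle lay. The 42 sRNAs divided evenly, with 21 on each arm. The 5' arm carried 8 of the Ah04mir1887 sRNAs and the 3' arm 7, while Ah20mirS3 had 9 and 12, and Ah20mirS2 had 4 and 2. The 5' arm shares were 53.3% (30.1 to 75.2%), 42.9% (24.5 to 63.5%) and 66.7% (30.0 to 90.3%) and did not differ beyond their intervals. Placing the sRNAs by their 5' end moved 0 of the 42 to the other arm. In 36 of the 42 no base fell within the unpaired tip, and of the 6 that reached into it 4 were from Ah04mir1887. A median of 19 of the 22 bases were paired in the fold, from 8 to 20. For Ah20mirS3 and Ah20mirS2 the tip includes bases that no listed sRNA covers and that were folded as unpaired, so the distance of these sRNAs from the true loop is not known.

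The sRNAs listed under at least 2 codes came mostly from the 3' arm, with 9 of 11 (81.8%, 52.3 to 94.9%), against 12 of the 31 listed under 1 code (38.7%, 23.7 to 56.2%). The intervals of these shares overlapped. Of the 9, 4 belonged to Ah04mir1887, 4 to Ah20mirS3 and 1 to Ah20mirS2. Among the sRNAs of all other lengths, 45 of 87 with at least 2 codes (51.7%, 41.4 to 61.9%) and 79 of 143 with 1 code (55.2%, 47.1 to 63.2%) came from the 3' arm. Of these, the ones with at least 2 codes gave 62.5% in Ah04mir1887, 58.3% in Ah20mirS3 and 21.1% in Ah20mirS2. At 21 nt, with at least 2 codes, the 3' arm gave 4 of 9, 11 of 15 and 1 of 5, in this order. The 22-nt sRNAs with at least 2 codes began with U in 8 of 11 cases (72.7%, 43.4 to 90.3%) and those with 1 code in 14 of 31 (45.2%, 29.2 to 62.2%), again with overlapping intervals.

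Part of the 5' ends lay in runs of neighbouring positions, and the others were single. Whether the runs exceed what the number of listed positions would give was not tested. In Ah04mir1887, 10 of the 15 lay in 3 runs, and the longest had 6 consecutive 5' ends, from 13558 to 13563, where the loop passes into the 3' arm. All 6 sRNAs of this run were listed under AVBR-14. In Ah20mirS3, 12 of the 21 lay in 5 runs, the longest with 4 consecutive 5' ends, from 10305 to 10308, at the start of the covered 3' arm. None of these 4 was listed under more than 1 code. In Ah20mirS2, the only run had 3 consecutive 5' ends, from 2293 to 2291 on the minus strand, with 3' ends where the 5' arm meets the tip.

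Sharing between library codes was limited. Of the 42 sRNAs, 31 were listed under 1 code, 8 under 2 and 3 under all 3 codes of their precursor. Among the 3 were the Ah04mir1887 sRNA at 13560 to 13581 and the Ah20mirS3 sRNA at 10320 to 10341. The share with at least 2 codes was 26.2% (15.3 to 41.1%) for 22 nt, against 45.3% (33.7 to 57.4%) for 21 nt, 33.3% (20.6 to 49.0%) for 23 nt and 50.0% (34.5 to 65.5%) for 24 nt, and the intervals overlapped. The remaining lengths were closer to 22 nt, with 26.7% for 18 nt, 30.0% for 19 nt, 30.0% for 20 nt and 31.25% for 25 nt. For 22 nt the share was 5 of 15 (33.3%, 15.2 to 58.3%) in Ah04mir1887, 5 of 21 (23.8%, 10.6 to 45.1%) in Ah20mirS3 and 1 of 6 (16.7%, 3.01 to 56.4%) in Ah20mirS2. With a code left out, the Ah04mir1887 share was 10.0% without AVBR-14 and 18.2% without AVBR-6, the Ah20mirS3 share was 10.0% without AVBR-15, and the Ah20mirS2 share was 0% without either AVBR-2 or AVBR-13. Sharing depends on abundance and depth, neither of which the lists give.

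In each precursor 1 code listed more 22-nt sRNAs than either of the others. For Ah04mir1887 the codes AVBR-14, AVBR-6 and AVBR-5 listed 10, 8 and 3 of them, out of 72, 45 and 30 sRNAs of all lengths. For Ah20mirS3, AVBR-8 listed 18 of the 21, and 13 of these were found under no other code, while AVBR-15 listed 6 and AVBR-9 listed 4. Their lists of all lengths had 78, 46 and 38 sRNAs. For Ah20mirS2, AVBR-2 listed 5 of the 6, AVBR-3 listed 1 and AVBR-13 listed 1. As a share of each code's own list, 22-nt sRNAs made up 23.1% (15.1 to 33.6%) in AVBR-8, 13.0% (6.12 to 25.7%) in AVBR-15 and 10.5% (4.17 to 24.1%) in AVBR-9, with overlapping intervals. The longest list of each precursor thus also held the most 22-nt sRNAs. Without AVBR-8 the 21 distinct 22-nt sRNAs of Ah20mirS3 became 8, and without AVBR-2 the 6 of Ah20mirS2 became 2. In AVBR-6 the numbers of 22-nt and 21-nt sRNAs were equal, at 8 each, whereas the other 8 codes listed fewer of 22 nt than of 21 nt. The 3' arm gave 3 of the 8 under AVBR-6 and 7 of the 10 under AVBR-14.

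In canonical processing, the strands of a miRNA duplex leave the hairpin paired, each with a 2-nt 3' overhang. Pairs of listed 22-nt sRNAs on opposite arms that would form such a duplex in the fold numbered 3 in Ah04mir1887, 5 in Ah20mirS3 and 0 in Ah20mirS2. They involved 6 of the 15 Ah04mir1887 sRNAs and 10 of the 21 Ah20mirS3 sRNAs. Both strands were listed under a shared code in all 3 Ah04mir1887 pairs and in 4 of the 5 Ah20mirS3 pairs. For each of these precursors, 1 pair with a strand listed under all 3 codes is shown here, and capitals now mark the 2-nt 3' overhang.
Ah04mir1887, 13533 to 13554, 5' arm: ttagattgttcttagtatgaGG
Ah04mir1887, 13560 to 13581, 3' arm: tcgtactaagtagagtctaaGT
Ah20mirS3, 10230 to 10251, 5' arm: ttgcaagtaaccgatcaaaaCC
Ah20mirS3, 10320 to 10341, 3' arm: ctttgattggttacccgtaaAA
Over the 20 facing positions, the Ah04mir1887 pair had 16 Watson-Crick pairs, 2 G:U pairs and 2 mismatches. The Ah20mirS3 pair had 15, 2 and 3.

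Whether the 2-nt overhang stood out was read from the numbers at the other overhangs, from -6 nt (recessed) to 10 nt. In Ah20mirS3 there were 5 pairs at 2 nt, against 2, 2, 1 and 2 at 0, 1, 3 and 4 nt, and up to 4 at any other overhang. Without AVBR-8, 1 of the 5 pairs remained. In Ah04mir1887 the 3 pairs at 2 nt equalled those at 1 and 3 nt and were fewer than the 4 at -2 nt. Without AVBR-14, 1 of these 3 pairs remained. The 8 possible pairs of Ah20mirS2 included 0 at any of these overhangs. For the 3 precursors together, 8 of 73 pairs of 22-nt sRNAs had the 2-nt overhang, with at most 6 at any other. The corresponding numbers were 14 of 157 and at most 12 for 21 nt, and 8 of 57 and at most 7 for 23 nt, so the small excess at 2 nt was not particular to 22 nt. Since 1 sRNA can enter several pairs, these numbers are a description.

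Ah04mir1887 has a relative in the A. thaliana genome, the miRNA gene MIR1887 (AT4G07005), which TAIR10.1 places at chr4:11370263-11370325. Of the 15 Ah04mir1887 sRNAs of 22 nt, 9 matched TAIR10.1 exactly and 4 with 1 mismatch. All 13 had a single match, on the plus strand, which overlapped MIR1887 and for 12 lay wholly inside it. The 9 exact matches span chr4:11370258-11370318. If C24 carries the same sequence, the lists cannot tell the transgene from the A. thaliana gene as their source. The C24 genome was not searched, so neither these matches nor the difference described next is known for the plants used. Of the 5 sRNAs listed under at least 2 codes, 1 matched exactly and the other 4 differed at the same base, 13581 on the S-allele and 11370319 on chromosome 4. Counted from 1 at the 5' end of the sRNA, with the base of the sRNA first, the difference is T22A for the sRNA at 13560 to 13581, and T21A, T20A and T19A for those that begin at 13561, 13562 and 13563. For the sRNA at 13560 to 13581, the most widely listed 22-nt sRNA of this precursor, the differing base is the one that it has beyond the 21-nt sRNA at 13560 to 13580. This 21-nt sRNA, tcgtactaagtagagtctaag, was likewise listed under all 3 codes. Of the Ah20mirS3 and Ah20mirS2 sRNAs of 22 nt, 0 of 21 and 0 of 6 matched TAIR10.1 with at most 1 mismatch. The authors had masked the S-locus of TAIR10 and kept only reads that mapped to the S-locus alone. Matches outside the masked region could therefore hardly remain, which limits the meaning of the 0 of 21 and 0 of 6. Matches at MIR1887 could remain if it lay in the masked region, whose bounds are not given in the sources used here.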

How the data were processed

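Small RNAs were sequenced from 9 libraries, 1 of each fraction and precursor. After trimming, quality filtering and size selection in TrimGalore, the authors aligned the reads in ShortStack, with at most 1 mismatch, both to TAIR10 without its S-locus and to the S-allele of the precursor, and kept reads placed at the S-locus alone. Their methods name the S-allele used for Ah04mir1887 and Ah20mirS3, but not for Ah20mirS2. The deposited values are start and end positions and lengths in nt. A minimum of reads for listing an sRNA is not given in the sources used here.

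In every row the end minus the start equalled the length, so starts were read as in a BED file. A repeated row of Ah20mirS2 was counted once. Precursors were rebuilt from overlapping sRNAs of all lengths, with uncovered bases unknown, and folded with RNAfold (ViennaRNA 2.7.2). The opposite of an unpaired base was taken from the nearest paired base. The RefSeq TAIR10.1 genome was searched on both strands without gaps. Python 3.11.15, pandas 2.3.3 and numpy 2.4.6 were used, and the functions were checked on simulated hairpins. Wilson intervals cover counting error only.

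The members were chosen with earlier results of these data known. The sRNAs to name were those listed under at least 2 codes with the 21-nt sRNAs that they extend, and the most used end position, which did not apply because each 5' end occurred once. The sequence and values of 1 of these sRNAs are not reported here. Other sRNAs were named after their values were seen, as were the overhang comparisons. Alternatives were leaving out a code, requiring 2 codes, and other arm and extension rules.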

Additional observations from a re-analysis of the deposited data

How the results depend on the processing

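No paired analysis was possible because the labels give no fraction of a precursor more than 1 library. Leaving out each code in turn, for Ah04mir1887, Ah20mirS3 and Ah20mirS2 in this order, the number of distinct 22-nt sRNAs ranged from 10 to 14, from 8 to 20 and from 2 to 6, and was lowest without AVBR-14, AVBR-8 and AVBR-2, the longest list of each precursor. The share beginning with U ranged from 35.7 to 54.5%, from 50.0 to 62.5% and from 80.0 to 100%. The 5' arm share ranged from 36.4 to 60.0%, from 37.5 to 42.1% and from 50.0 to 66.7%. The share listed under at least 2 codes ranged from 10.0 to 28.6%, from 10.0 to 26.3% and from 0 to 20.0%. The share extending a listed 21-nt sRNA ranged from 85.7 to 100%, from 73.7 to 100% and from 0 to 80.0%.

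With only sRNAs listed under at least 2 codes, 5, 5 and 1 sRNAs were left, the 5' arm shares were 20.0, 20.0 and 0%, and the extended shares 100, 100 and 0%. The share with U became 80.0% for Ah20mirS3 and 100% for Ah20mirS2. The pairs with 2-nt 3' overhangs, an alternative chosen after seeing the data, then fell to 0 in Ah04mir1887 and 1 in Ah20mirS3, and ranged from 1 to 3 and from 1 to 5 with a code left out. Fewer sRNAs are left by construction in each of these settings. The other 13 values, among them all those for arms by the 5' end or about the middle of the covered span and for 21-nt sRNAs under a shared code or matched by sequence alone, stayed within the intervals of the full list. Depth and abundance are unknown, which limits every comparison between codes and precursors.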

Other observations

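The 42 sRNAs were AU-rich, with a G and C content from 22.7 to 40.9% and medians of 31.8% in Ah04mir1887, 31.8% in Ah20mirS3 and 27.3% in Ah20mirS2. Taken over all their bases, the content was 31.5%, against 32.1% for the 21-nt and 33.1% for the 23-nt sRNAs. The last base was U in 16, A in 13, G in 9 and C in 4 of the 42, and C ended 0 of the 15 Ah04mir1887 sRNAs. The seed differed between all 42. This was nearly fixed in advance, since distinct sRNAs of the same length and precursor each begin at another position. Of the 42, 11 lay inside no longer listed sRNA.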
